A study of Saccharomyces cerevisiae with 2 samples.

Results

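The genes described here are 38 nuclear genes, out of 6002 protein-coding genes on 16 chromosomes. They encode subunits of the yeast respiratory chain and the mitochondrial ATP synthase, with the lactate dehydrogenase gene CYB2 included. The list is not complete: the subunit genes ATP19, TIM11 and COX26 are among those left out and are counted with further genes below. They were listed by name and divided by complex, a rule that uses no measured value, although earlier results of these data were known when the list was made: 3 NADH dehydrogenases, 4 genes of complex II, 9 of complex III, 9 of complex IV, 12 of the ATP synthase and CYB2. All 38 were found in the gene table.

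In DNase-seq, DNase I nicks the DNA of isolated nuclei where chromatin is accessible, and regions with many cuts are reported as hotspots. The study set a strain with the temperature-sensitive Hsp90 allele G170D against the wild type (WT), to ask which chromatin depends on Hsp90, a chaperone of kinases, receptors and transcription factors. Both strains are W303, both were grown in YPD, a rich glucose medium, at 30 °C to an optical density of 0.65, and both were held at 37 °C, a non-permissive temperature for the mutant, for 15 min. There was 1 library per strain. The labels name no further alleles, do not say which of the paired Hsp90 genes HSP82 and HSC82 each strain carries, and give no library from before the shift, so a difference present at 30 °C cannot be told apart from one that arose at 37 °C.

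Yeast has no proton-pumping complex I. Single-protein NADH dehydrogenases on either face of the inner mitochondrial membrane pass electrons to ubiquinone, as does complex II (succinate dehydrogenase), and complex III carries them to cytochrome c. Complex IV hands them to oxygen, and the proton gradient built on the way drives the ATP synthase, a rotary enzyme with a catalytic F1 head, a membrane-embedded Fo part and a peripheral stalk that joins them. Many of these genes are activated by the Hap2/3/4/5 complex and held low while glucose is plentiful.

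The G170D list held 5988 hotspots (3.33 Mb in all, 556 bp wide on average), and the WT list held 7050 (3.83 Mb, 543 bp). Read depth is unknown. Every value below is a length or a share covered by hotspots in 1 library per strain, so no difference has a replicate check, no test was possible and no p-value is given. Except where stated, counts over the 38 genes are set beside the same count over all 6002. A difference was counted from 100 bp in the promoter, taken as the 500 bp upstream of the coding start, and from 20 percentage points in the coding body. Hotspots touched the promoter or body of 36 of the 38 genes in G170D (49 hotspots) and of 36 in WT (58 hotspots), and none of them reached 2 of the 38 genes. These touched genes were not counted over all 6002, so the numbers have no background and mark no trait of the 38.

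The promoters of the respiratory genes were mostly accessible in both strains. In 30 of 38 the difference stayed below 100 bp, with 5 less and 3 more covered in G170D. A hotspot lay in the promoter in both strains for 30 of 38 genes (72.4% of all coding genes), in G170D alone for 1 gene (3.65%), in WT alone for 4 (9.58%) and in neither for 3 (14.4%). The median covered length was 298.5 bp in G170D and 365.5 bp in WT for the 38 genes, and 286 bp in G170D and 317 bp in WT over all coding genes. The median of the differences, G170D minus WT, was -2 bp over the 38 genes and 0 bp over all. By any amount, 19 of 38 were less covered in G170D (44.2% of all coding genes), 7 more covered and 12 equal. Of all coding genes, 19.6% were less covered by 100 bp or more in G170D and 9.61% more covered, so neither 5 nor 3 of 38 stands above the background. The promoter was covered over its whole length in both strains for 9 of 38 genes (20.1% of all). With a window of 1000 bp the counts were 12 less and 7 more covered.

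**Figure D1:**
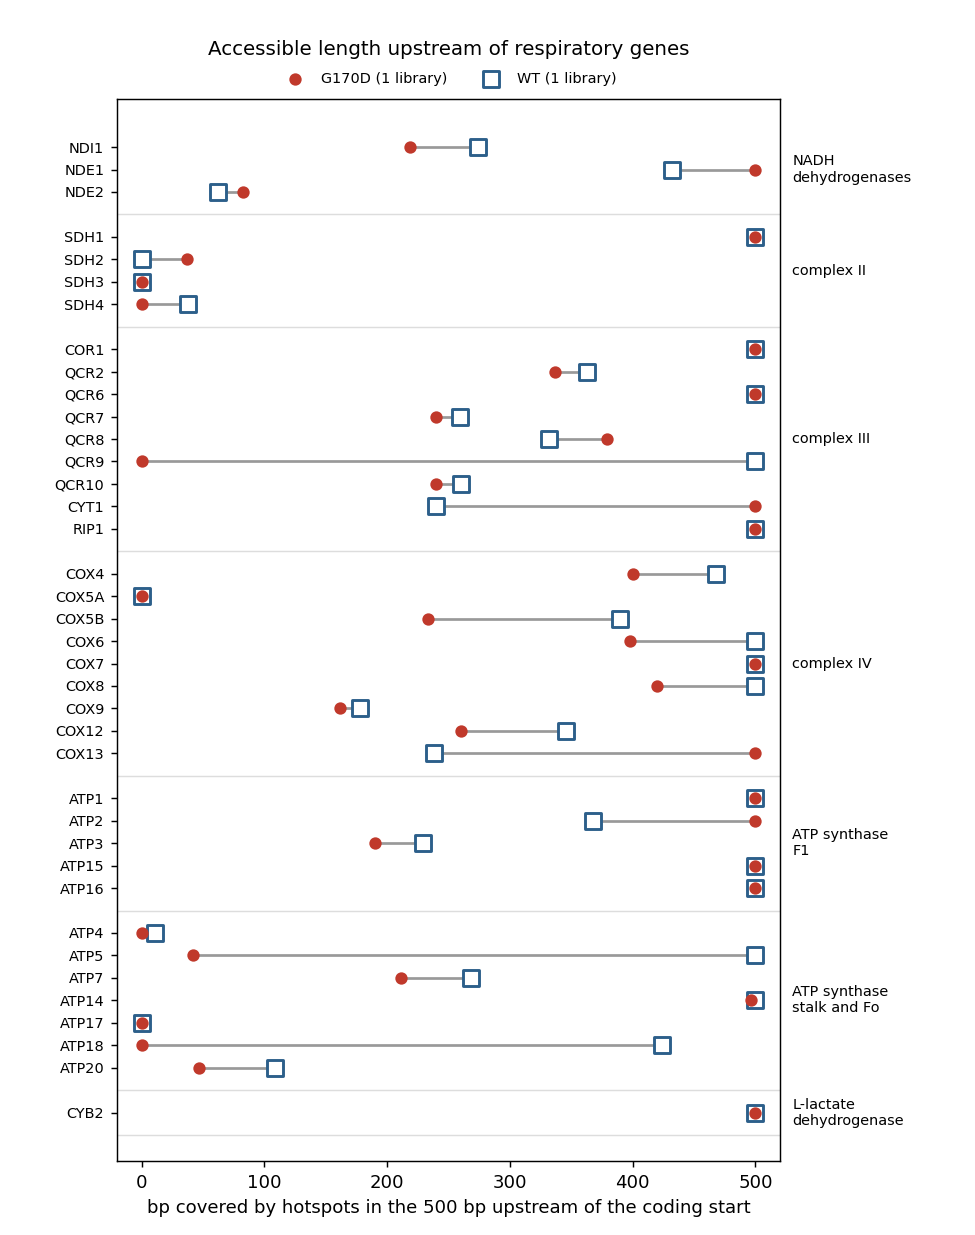
Length covered by hotspots (bp, horizontal axis) in the 500 bp upstream of each of the 38 coding starts, by complex, in G170D (filled circles) and WT (open squares), 1 library each. Most pairs lie close together. The widest gaps, at QCR9, ATP5 and ATP18, have G170D at 0, 42 and 0 bp, against 500, 500 and 424 bp in WT.

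By the limit of 20 points, coding bodies less covered in G170D lay mostly in the ATP synthase, and those more covered mostly in complex III. ATP synthase genes made up 7 of the 9 coding bodies that were less covered in G170D, and complex III genes 3 of the 4 that were more covered. The background was 15.3% of all coding genes for less and 9.43% for more. The ATP synthase thus had 7 of 12 bodies less covered (58.3%) and 0 more covered, while complex III had 0 of 9 less covered and 3 of 9 more covered (33.3%). By any amount, 11 ATP synthase bodies were less covered and 1 more covered. In complex III, 4 were less covered, 4 more covered and 1 equal. The median body difference was -20.2 points over the 12 ATP synthase genes, 0 points over the 9 complex III genes, -1.79 points over the 38 and -1.41 points over all coding genes. The grouping by complex was read with these values in view, and the counts describe 2 libraries. The 12 leave out the ATP synthase subunit genes ATP19 and TIM11, and neither of those bodies passed the limit. From a difference of 30 points upward, 2 of the 12 ATP synthase bodies (ATP16 and ATP18) and the same 3 complex III bodies were counted. Of the 38 genes, 4 bodies were then less covered, with COX6 and CYB2 as the others, so the ATP synthase no longer held most of them. In 5 genes, NDI1, SDH2, SDH4, COX4 and COX5A, the body held no hotspot in either strain (15.2% of all coding genes).

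Respiratory bodies are short, with a median of 504 bp against 1200 bp over all coding genes, so a hotspot at either end covers a larger share of them. Among coding genes of at most 600 bp, 18.5% were less covered and 11.2% more covered in G170D. The 23 genes of the respiratory set in this size class had 6 less covered and 1 more covered.

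**Figure D2:**
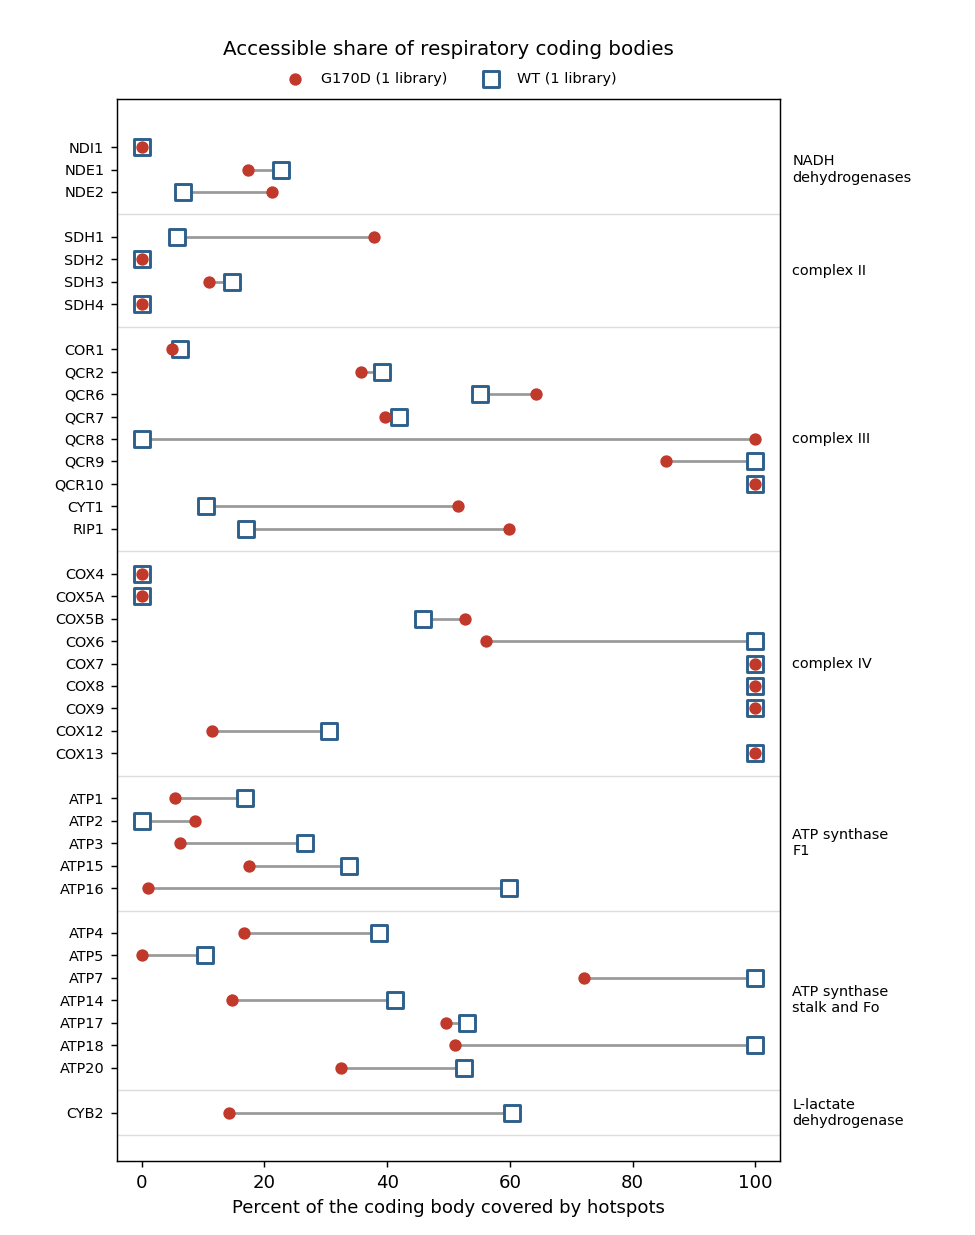
Percent of the coding body covered by hotspots (horizontal axis) for the same 38 genes in G170D (filled circles) and WT (open squares), 1 library each. In the ATP synthase, G170D lies left of WT for 11 of 12 genes, against 55.7% of all coding genes, while QCR8, CYT1, RIP1 and SDH1 have G170D well to the right.

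At the entry of electrons, the NADH dehydrogenases changed little. NDI1 (YML120C, chromosome XIII, 28266 to 29807, sacCer3, minus strand), the enzyme on the matrix face, had 219 bp of promoter covered in G170D and 274 bp in WT, and its body had no hotspot in either strain. NDE1 (YMR145C), which oxidises cytosolic NADH at the outer face, had 500 bp in G170D and 432 bp in WT. NDE2 (YDL085W), its second form, had 83 bp in G170D and 62 bp in WT. Body coverage was 17.4% in G170D and 22.6% in WT at NDE1, and 21.3% in G170D and 6.72% in WT at NDE2, where the covered part in both strains was the end next to the stop codon. All 3 stayed below both limits.

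Complex II was accessible at SDH1 and nearly closed at the other subunits. SDH1 (YKL148C, chromosome XI, 169207 to 171129, minus strand) encodes the flavoprotein that oxidises succinate. Its promoter was fully covered in both strains, and its body was covered over 729 bp (37.9%) in G170D and 111 bp (5.77%) in WT. A single hotspot accounts for each value, 2093 bp wide in G170D and 942 bp in WT, and the G170D one was longer on both sides.

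The iron-sulfur subunit gene SDH2 (YLL041C) had a 37 bp hotspot in its promoter in G170D and none in WT. SDH4 (YDR178W), a membrane anchor gene, had none in G170D and a 38 bp hotspot in WT. Both stood low in their own lists by the authors' score, at percentile 26.1 in G170D for SDH2 and 19.9 in WT for SDH4. SDH3 (YKL141W), the other anchor, had no promoter hotspot in either strain, and the hotspot at the end of its body covered 11.1% in G170D and 14.7% in WT.

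In complex III the promoters were alike in 7 of 9 genes, and the 3 bodies that passed the limit were all more covered in G170D. The core protein genes COR1 (500 bp in both strains) and QCR2 (337 bp in G170D and 363 bp in WT) hardly differed. The small-subunit genes QCR6 (500 bp in both strains), QCR7 (240 bp in G170D and 259 bp in WT) and QCR10 (240 bp in G170D and 260 bp in WT) did not either. The hotspot upstream of QCR6 ranked at percentile 99.7 of the G170D list and 96.5 of the WT list. The widest G170D hotspot at any of the 38 genes, 2739 bp in G170D against 1779 bp in WT, lay over the end of QCR2 and the region beyond it.

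QCR8 (YJL166W, chromosome X, 106434 to 106718, plus strand) encodes a small subunit that sits beside cytochrome b. Its body was covered completely in G170D, 285 bp, and not at all in WT. The G170D hotspot ran from 379 bp upstream of the start to 628 bp downstream (106055 to 107062), whereas the WT hotspot ended 6 bp before the start (106097 to 106428).

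CYT1 (YOR065W, chromosome XV, 447439 to 448368, plus strand) encodes cytochrome c1, the subunit that hands electrons to cytochrome c. Its promoter was covered over 500 bp in G170D and 240 bp in WT, and its body over 51.5% in G170D and 10.5% in WT. One hotspot of 1688 bp in G170D (446230 to 447917) lay where WT had one of 949 bp and a separate one of 150 bp. Of the 38 genes, only CYT1 passed both limits towards more coverage.

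RIP1 (YEL024W, chromosome V, 107260 to 107907, plus strand) encodes the Rieske iron-sulfur protein. Its promoter was fully covered in both strains, and its body was covered over 59.9% in G170D and 17.0% in WT. The upstream hotspot covered 294 bp of the body in G170D and 110 bp in WT, and a second hotspot of 742 bp over the end of the gene was present in G170D only.

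QCR9 (YGR183C, chromosome VII, 859063 to 859476, minus strand), another small-subunit gene, went the other way in its promoter. It had 0 bp covered in G170D and all 500 bp in WT. A WT hotspot of 2925 bp (857484 to 860408) took in the promoter, the body and the flanks, and G170D kept 871 bp of it from 60 bp inside the body onwards. The WT hotspot extended beyond the G170D one by 992 bp upstream and by 1062 bp downstream, past the end of the gene. The body itself was covered over 85.5% in G170D and 100% in WT.

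**Figure D3:**
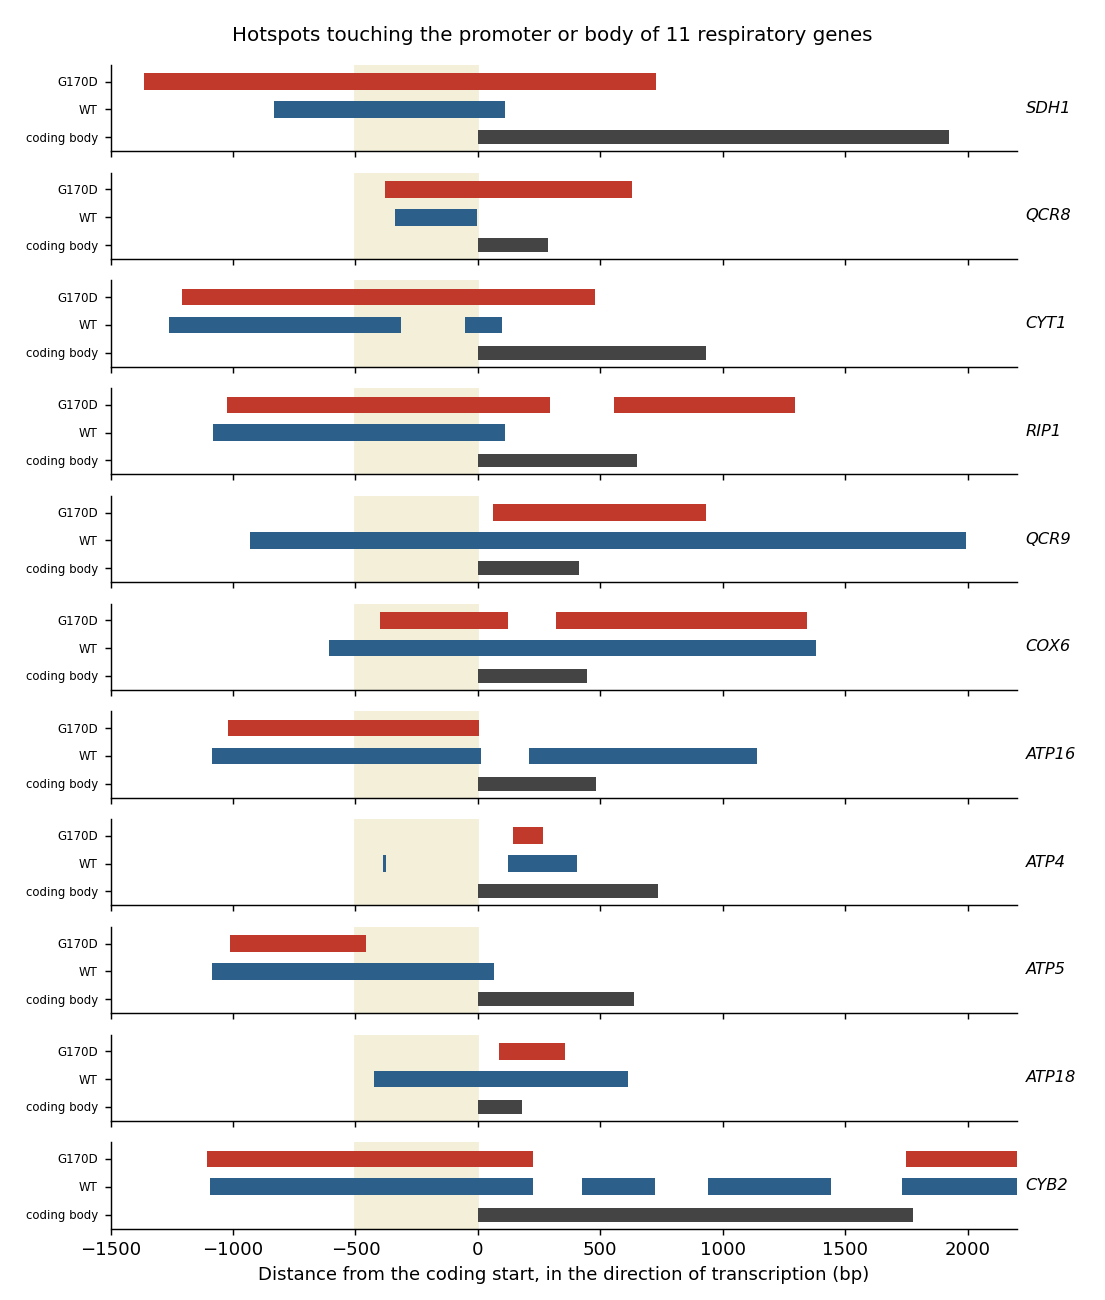
Hotspots that touch the promoter (shaded, 500 bp) or the coding body (grey bar) of 11 genes, drawn from the coding start in the direction of transcription (bp), with G170D above WT and 1 library each. At SDH1, QCR8, CYT1 and RIP1 the G170D hotspots reach farther into the body, and at COX6, ATP16, ATP4, ATP18 and CYB2 parts covered in WT are uncovered in G170D.

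Complex IV held both fully covered genes and one without any hotspot. A promoter hotspot was present in both strains for 8 of 9 genes, with COX5B and COX6 less covered in G170D and COX13 more covered. Over the 9 genes the median promoter length was 398 bp in G170D and 390 bp in WT, though the median of the differences within genes was -68 bp. Bodies of COX7, COX8, COX9 and COX13 were fully covered in both strains, which made up 4 of the 5 such bodies among the 38 genes (5.45% of all coding genes), with QCR10 as the other one. All 5 are genes of at most 600 bp, a class in which such bodies were 23.8% of all coding genes and 21.7% of the 23 respiratory genes.

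Subunit V of complex IV comes in a pair of forms, COX5A for well-aerated cells and COX5B for low oxygen, and the loci differed in both strains. COX5A (YNL052W, chromosome XIV, 531725 to 532186, plus strand) had no hotspot in its promoter or body in either strain. The nearest hotspot upstream lay 1358 bp away in G170D and 1341 bp in WT. COX5B (YIL111W, chromosome IX, 155222 to 155765, plus strand) had 233 bp of promoter covered in G170D and 390 bp in WT. Its body was covered over 52.8% in G170D and 45.8% in WT. Absence from a hotspot list says that no region was called there, at a depth that is unknown.

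COX6 (YHR051W, chromosome VIII, 209705 to 210151, plus strand), the gene of subunit VI, was the only complex IV gene that passed both limits, with less coverage in G170D. It had 398 bp of promoter covered in G170D and 500 bp in WT, a difference just past the limit. The upstream gene YHR050W-A lies 59 bp from the start, and the promoter bases lost in G170D were all beyond its near edge. Between these genes every base was covered in both strains. The body of COX6 was covered over 56.2% in G170D against 100% in WT. A single WT hotspot of 1987 bp, at percentile 99.6 of its list, was replaced in G170D by a pair of 521 and 1025 bp with a gap inside the gene.

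COX13 (YGL191W, chromosome VII, 144808 to 145197, plus strand), which encodes subunit VIa, had 500 bp of promoter covered in G170D and 238 bp in WT. One G170D hotspot of 1765 bp spanned the region of 2 WT hotspots of 365 and 1118 bp, and the outer edges differed by only 3 bp upstream and 23 bp downstream. COX7 had a hotspot of 1867 bp in G170D and one of 3691 bp in WT, the widest WT hotspot at any of the 38 genes, and its windows were full in both.

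The other complex IV promoters were each less covered in G170D by under 100 bp. COX4, the subunit IV gene, had 400 bp in G170D and 468 bp in WT, with no hotspot in its body in either. COX8 had 420 bp in G170D and 500 bp in WT, and COX9 162 bp in G170D and 178 bp in WT. COX12, the subunit VIb gene, lay nearest to both limits without reaching them, with 260 bp in G170D and 346 bp in WT upstream, and 11.5% in G170D and 30.6% in WT of its body.

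Promoters of the F1 head genes of the ATP synthase were accessible in both strains, while those of the stalk and Fo genes were less so. All 5 F1 promoters had a hotspot in both strains, though at ATP2 the WT one lay beyond the edge of the upstream gene. The median length was 500 bp in G170D and 500 bp in WT. Of the 7 stalk and Fo promoters, 4 had a hotspot in both strains, 1 had none in either and 2 had one only in WT. The median length was 42 bp in G170D and 268 bp in WT, though the median of the differences within genes was -57 bp. By the limit of 100 bp, 2 of the 7 were less covered in G170D and 0 more covered. By any amount 6 of the 7 were less covered, against 44.2% of all coding genes.

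Among the F1 genes, ATP1, ATP15 and ATP16, which encode the alpha, epsilon and delta subunits, had fully covered promoters in both strains. ATP2 (YJR121W, chromosome X, 647607 to 649142, plus strand), the gene of the catalytic beta subunit, had 500 bp covered in G170D and 368 bp in WT. Its G170D hotspot covered the first 134 bp of the body, whereas the WT one ended 133 bp before the start. The upstream gene DMO1 lies 130 bp from the start, so no base between DMO1 and ATP2 was covered in WT. ATP3, the gamma subunit gene, had 190 bp in G170D and 229 bp in WT.

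F1 bodies were less covered in G170D for ATP16 and ATP3. ATP16 (YDL004W, chromosome IV, 443029 to 443511, plus strand) had 5 bp of its body covered in G170D (1.04%) and 289 bp in WT (59.8%). A WT hotspot of 934 bp, which began 207 bp inside the gene and ran past its end, was missing from the G170D list, while the hotspot over the promoter was 1025 bp in G170D and 1100 bp in WT. ATP3 (YBR039W) was just past the limit with 6.30% in G170D and 26.6% in WT. ATP1 (5.37% in G170D and 16.9% in WT) and ATP15 (17.5% in G170D and 33.9% in WT) were below it, and ATP2 was the only ATP synthase gene with a higher share in G170D, 8.72% against 0% in WT.

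The greatest promoter losses of the ATP synthase were at ATP5 and ATP18. ATP5 (YDR298C, chromosome IV, 1058176 to 1058814, minus strand) encodes the subunit that ties the stalk to the F1 head. It had 42 bp of promoter covered in G170D and 500 bp in WT. The hotspot upstream was 555 bp in G170D and 1150 bp in WT, with the far edges 71 bp apart and the loss on the side of ATP5. The next gene in the opposite direction is BFR2, 812 bp away.

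ATP18 (YML081C-A, chromosome XIII, 103983 to 104162, minus strand), the gene of a small Fo subunit, had no promoter base covered in G170D and 424 bp in WT. Its body was covered over 51.1% in G170D and 100% in WT. The hotspot here was 267 bp wide in G170D, at percentile 47.2 of that list, and 1038 bp wide in WT, at percentile 57.0, so it was of middling rank in both.

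ATP4 (YPL078C, chromosome XVI, 408010 to 408744, minus strand) encodes subunit b, the backbone of the stalk. It had no promoter hotspot in G170D, and in WT one of 11 bp at percentile 9.96. Inside the body, a hotspot of 123 bp in G170D gave 16.7% coverage, and one of 284 bp in WT gave 38.6%. ATP7, the subunit d gene, had 211 bp of promoter in G170D and 268 bp in WT, and 72.0% of its body in G170D against 100% in WT. In ATP7, 277 of the 525 bp of the body lie within 500 bp upstream of another coding gene, and the bases lost in G170D were all in that part: outside it, 248 bp were covered in both strains.

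ATP14, the subunit h gene, kept an almost full promoter, 496 bp in G170D and 500 bp in WT, with 14.7% of the body in G170D and 41.3% in WT. ATP20, whose subunit g takes part in pairing of ATP synthases, had 47 bp of promoter in G170D and 109 bp in WT. Its body stood just past the limit at 32.5% in G170D and 52.6% in WT. ATP17, the subunit f gene, had no promoter hotspot in either strain and a hotspot over the end of its body, 49.7% in G170D and 52.9% in WT.

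Counts at single positions along the genes differed between the strains at some positions and not at others. At 200 bp downstream of the coding start, 6 of 9 complex III genes were covered in G170D and 2 of 9 in WT. At 400 bp downstream, 3 of 12 ATP synthase loci were covered in G170D and 8 of 12 in WT. At 100 bp downstream, 3 of 12 ATP synthase genes were covered in G170D and 2 of 12 in WT, and at 500 bp downstream 5 of 9 complex III loci were covered in each strain. The positions at 200 and 400 bp were picked after the profiles were seen, and several of the genes end before 400 bp, so that the base counted lies past the stop codon. Over all coding genes the share was 30.1% in G170D and 33.5% in WT at 200 bp, and 25.2% in G170D and 28.3% in WT at 400 bp. At 100 bp upstream, 8 of 9 complex III genes were covered in each strain, and 6 of 12 ATP synthase genes in G170D against 8 of 12 in WT.

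**Figure D4:**
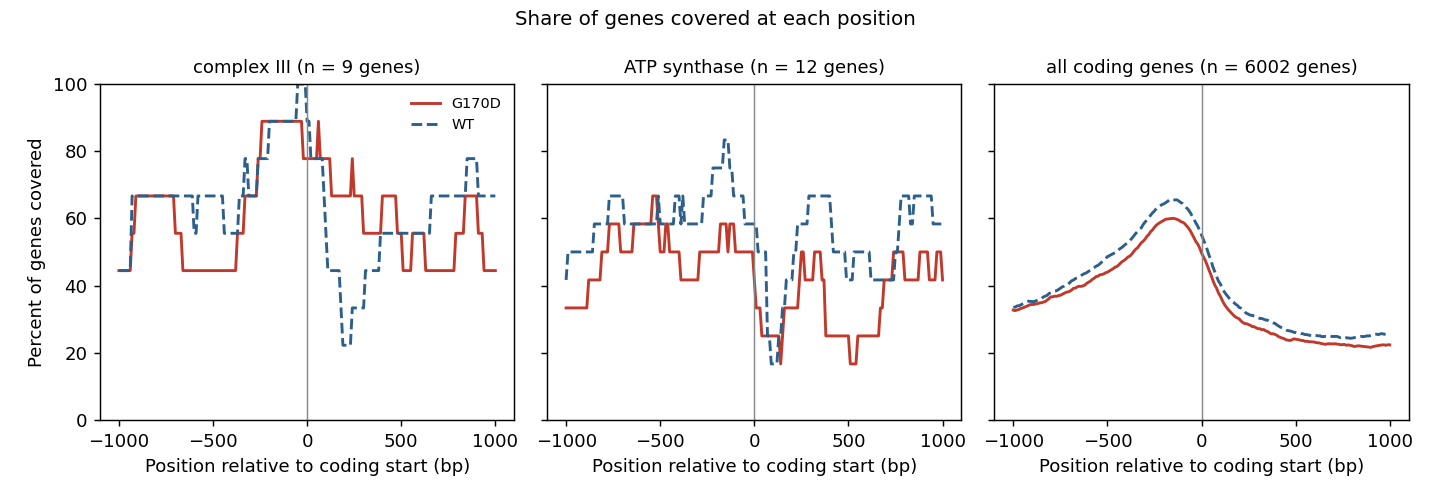
Percent of genes covered by a hotspot (vertical axis) at each position from 1000 bp upstream to 1000 bp downstream of the coding start, every 10 bp, for complex III (9 genes), the ATP synthase (12) and all 6002 coding genes, in G170D (solid) and WT (dashed). Over complex III the G170D line lies above WT at 200 bp downstream (66.7% in G170D against 22.2% in WT). Over the ATP synthase it lies below WT at 400 bp (3 of 12 loci in G170D against 8 of 12 in WT).

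CYB2 (YML054C, chromosome XIII, 165533 to 167308, minus strand) encodes cytochrome b2, which oxidises lactate and passes the electrons to cytochrome c. Its promoter was fully covered in both strains, but its body was covered over 254 bp (14.3%) in G170D and 1071 bp (60.3%) in WT. WT had separate hotspots of 504 and 299 bp inside the gene that the G170D list lacked, at percentiles 45.5 and 60.6 of the WT list. The hotspot at the start was nearly the same, 1333 bp in G170D and 1321 bp in WT, and reached the same point in the body to within 1 bp.

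Other genes of respiration were counted from lists of 82 genes chosen by function. In these, 68 promoters had a hotspot in both strains (72.4% of all coding genes), 5 in G170D alone (3.65%), 3 in WT alone (9.58%) and 6 in neither (14.4%). Out of 82, promoters were less covered by 100 bp or more in G170D for 15 genes and more covered for 5. Over all coding genes the promoter shares were 19.6% less covered and 9.61% more covered. Bodies were less covered for 14 of the 82 and more covered for 12. The share of bodies was 17.1% for less covered, near the background of 15.3%, and 14.6% for more covered, against 9.43%.

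Cytochrome c, the carrier between complexes III and IV, had open promoters for both of its genes. CYC1, the main form, had 500 bp in G170D and 229 bp in WT, and CYC7, the minor form, 500 bp in both. CYC3, which attaches heme to cytochrome c, was fully covered in both windows of both strains, and CYC2, which takes part in the same step, had 14.8% of its body in G170D and 51.9% in WT. Of 11 coenzyme Q synthesis genes, COQ5 had a promoter hotspot in G170D alone (90 bp) and COQ8 in WT alone (471 bp). COQ1, which makes the isoprenoid tail, had 264 bp in G170D and 500 bp in WT, and COQ10 294 bp in G170D and 500 bp in WT.

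Assembly factor genes moved in both directions. Of 24 genes for complex IV assembly, 4 promoters were less and 4 more covered in G170D, and likewise 4 bodies each way. Over all coding genes the shares were 19.6% less and 9.61% more covered for promoters, and 15.3% and 9.43% for bodies. COX14 (66 bp), COX20 (500 bp) and PET122 (500 bp), the last a translational activator of a mitochondrial mRNA, had a promoter hotspot in G170D and none in WT. PET122 and OXA1, also in this list, are divergent neighbours with overlapping promoter windows. Both were counted as more covered in promoter and body, so these counts are not independent. COX10, the heme A synthesis gene, had 318 bp in G170D and 285 bp in WT.

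Of 10 complex III assembly genes, BCS1, which inserts the Rieske protein, had 9 bp in G170D and none in WT. CBP1 had 500 bp in G170D and 429 bp in WT, CBP2 472 bp in G170D and 478 bp in WT, and CBP3 122 bp in G170D and 276 bp in WT. None of the 10 bodies passed the limit either way, against 15.3% of all coding genes less covered and 9.43% more covered. Of 4 complex II assembly genes, SDH8 had 0 bp in G170D and 74 bp in WT, SDH5 had none in either, SDH6 207 bp in G170D and 232 bp in WT, and SDH7 244 bp in G170D and 424 bp in WT.

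Assembly and regulatory genes of the ATP synthase, 14 in all, had 5 bodies less covered and 2 more covered, and 4 promoters less covered and 0 more covered in G170D. The body shares were 35.7% and 14.3%, against 15.3% and 9.43% of all coding genes. For promoters, 19.6% of all coding genes were less covered and 9.61% more covered. A list of 14 genes is too small to set these shares apart. NCA2 had no promoter base covered in G170D and 157 bp in WT. AEP1, needed to translate a mitochondrially encoded Fo subunit, had 112 bp in G170D and 182 bp in WT. AEP2 had 246 bp in G170D and 231 bp in WT, and AEP3 none in either.

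Of 5 further small subunits or associated factors, ATP19 and COX26 had full promoters in both strains, RCF1 had no promoter hotspot in either, and RCF2 had a full promoter in both with 100% of its body in G170D and 6.37% in WT. The body of ATP19 was covered over 100% in both strains, and that of TIM11 over 74.2% in G170D and 89.0% in WT. All 4 genes of other electron donors kept their promoter hotspots. DLD1, the mitochondrial D-lactate dehydrogenase gene, had 500 bp in G170D and 464 bp in WT, DLD2 447 bp in G170D and 500 bp in WT, and GUT2 and MCR1 500 bp in both. The body of GUT2, the glycerol-3-phosphate dehydrogenase gene, was covered over 73.0% in G170D and 24.3% in WT.

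Among the regulators, HAP1, the heme-responsive activator gene, and HAP4, the glucose-regulated subunit of the Hap2/3/4/5 complex, had 500 bp of promoter covered in both strains. HAP2 had 129 bp in G170D and 243 bp in WT, and HAP3 none in either. Of the 6 regulator bodies, 2 were more covered in G170D (9.43% of all coding genes) and 1 less covered (15.3%). Body coverage was 46.6% in G170D and 25.4% in WT at HAP1, and 94.9% in G170D and 21.3% in WT at HAP5. At HAP4 it was 9.97% in G170D and 38.9% in WT. Hotspots record accessibility and not transcription, so the activity of these regulators was not measured.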

How the data were processed

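DNase-seq libraries, 1 of the G170D strain and 1 of WT, were grouped by source label. The labels' protocols describe a limited DNase I digestion of nuclei and sequencing of size-selected fragments for 101 cycles. Tools named in the submitters' processing notes are Bowtie 1.0.0 and FastQC 0.10.1, with sacCer3 as the build. The hotspot caller, its threshold and the read depth were all not given in the sources used here. The deposited score of each hotspot has no stated meaning and served only to rank hotspots within a list. Positions are printed counting from 1.

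Genes came from the RefSeq table of assembly R64 (sacCer3), with strand from the W or C of the systematic name. A coding body runs from start to stop, introns included. Covered bases were counted in the 500 bp upstream and in the body. The genes, lists and comparisons were chosen with earlier results of these data known. Genes were named in full when their promoter class differed, when their promoter differed by 100 bp or more or their body by 20 points or more, and for the 3 widest hotspots. Up to 4 genes of each further list were named, alphabetically, those in 1 strain first. Body values of RCF2, ATP19, TIM11, GUT2, CYC2, HAP1, HAP4 and HAP5 were added after they were seen. They do not show the balance of the 82 further genes, of which 14 bodies were less and 12 more covered in G170D. No sequence was used here, so a planned motif count was not run. Alternatives covered the window, the size of difference, the score cutoff, merging and the part of the body. The code was tested on simulated data. Python 3.11.15, numpy 2.4.6, pandas 2.3.3, scipy 1.17.1 and matplotlib 3.10.9 were used.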

Additional observations from a re-analysis of the deposited data

How the results depend on the processing

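Of 84 recomputed values, 70 stayed within 1.5 times the reported count or within the 95% order-statistic interval of the reported median. The others concern the following counts. Promoters less covered in G170D by the stated size numbered 3 with a 250 bp window, 12 with a 1000 bp window, 11 from 50 bp upward and 3 from 200 bp upward, against 5 reported. Promoters more covered numbered 7 with a 1000 bp window, against 3. Promoters with a hotspot in G170D alone, 1 as reported, numbered 3 with lists of equal covered length, 0 with the higher-scoring 50% of each list, 2 with a 1000 bp window and 2 with windows that end at the upstream gene. Those in WT alone, 4 as reported, numbered 2 with lists of equal covered length and 2 with a 1000 bp window. Bodies less covered numbered 14 from 10 points upward and 4 from 30 points upward, against 9, and for the ATP synthase 2 from 30 points upward, against 7. The size of difference and the window change these counts by their construction, and for the score cutoffs the cause was not tested. The ATP synthase count lay between 5 and 10 under the other alternatives, and the complex III count was 3 under all 8. Alternatives for these complex counts, and the one that left out body bases upstream of other genes, were added after the data were seen. No paired analysis was possible because each strain has 1 library. Depth is unknown and limits every count.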

Other observations

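The best-ranked hotspot in each promoter was followed by its width and by its place in its own list. Of the 30 genes with a promoter hotspot in both strains, it was narrower in G170D for 17 and wider for 13, with a median width of 1016.5 bp in G170D and 1007.5 bp in WT. By the authors' score it stood in the top 10% of its list for 11 of 31 genes in G170D and 13 of 34 in WT, and in the lowest 25% for 2 genes in each strain. Those 2 were ATP20 and NDI1 in G170D, and ATP4 and SDH4 in WT. The highest places were held by QCR6 in G170D, at percentile 99.7, and by COX6 in WT, at percentile 99.6. These widths and places were not counted over all coding genes, so they have no background. Taking the best-ranked hotspot of each promoter also favours high places.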
